A study of Schizosaccharomyces pombe with 4 samples.

Results

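The mRNA levels of 9 translation initiation factor genes outside the eIF3 complex, of 6807 genes measured, were compared between fission yeast without the eIF3 subunit eIF3e and wild type.

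Translation initiation in eukaryotes joins an mRNA, the small ribosomal subunit and the initiator tRNA. The cap-binding protein eIF4E, the scaffold eIF4G and the RNA helicase eIF4A form eIF4F on the capped end of the mRNA, and eIF4G also binds the poly(A) binding protein on the tail. The GTPase eIF2 brings the initiator tRNA, eIF1A helps the ribosome scan for the start codon, and eIF5 stimulates GTP hydrolysis by eIF2 when the start codon is found. eIF3 holds several of these factors on the small subunit.

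The genes were chosen by identifier. They were tif1 (SPAC1006.07, eIF4A), tif451 and tif452 (SPAC16E8.15 and SPBC1709.18, both eIF4E), tif471 (SPAC17C9.03, eIF4G) and pab1 (SPAC57A7.04c, the poly(A) binding protein), followed by SPAC32A11.04c, tif213 (SPBC17G9.09, the gamma subunit of eIF2), tif5 (SPAC2F7.05c, eIF5) and tif11 (SPBC25H2.07, eIF1A). SPAC32A11.04c had been listed as tif211, the alpha subunit of eIF2, but RefSeq names it tif212, the beta subunit, and it is called tif212 here. The alpha subunit gene is SPAC3G9.09c, and its values are given beside those of tif212. RefSeq calls tif451 by the symbol tif45 and pab1 by the symbol pabp.

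In the coordinates of the deposited table, whose build is not named, 6 of the genes lie on chromosome 1. These are tif5 (539919 to 541640, minus strand), pab1 (1540606 to 1545221, plus), tif212 (2443890 to 2445040, minus), tif451 (3527949 to 3529446, plus), tif471 (4491952 to 4496637, minus) and tif1 (5085486 to 5087031, plus). The other 3 lie on chromosome 2, namely tif452 (1134244 to 1135619, plus), tif213 (2187455 to 2189134, plus) and tif11 (3271874 to 3272718, minus).

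The strains were of Schizosaccharomyces pombe, the fission yeast. The eif3e deletion carried int6::kanMX6, a drug resistance cassette in place of int6, the gene of the eIF3 subunit eIF3e, and wild type carried int6 intact. Each strain was h- in mating type, with the markers ura4-D18 and leu1-32. Cells were grown in yeast extract medium with adenine and uracil, known as YES, to an OD of 0.8 to 1.0, total RNA was depleted of rRNA, and the libraries were sequenced on a SOLiD 4 instrument. There were 2 libraries per strain, numbered 1 and 2. The labels give same-numbered libraries of both strains a shared title prefix without saying what it marks, and do not say that replicates came from separate cultures or clones, so p-values measure only a spread between libraries that may be technical.

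Features held 28254322 and 16679123 reads in deletion replicates 1 and 2, and 17485020 and 9926548 reads in wild-type replicates 1 and 2. Protein-coding genes took 10.3% to 17.4% of the reads of a library and rRNA 50.4% to 66.4%. The 9 genes together took 0.479% and 0.371% of the protein-coding reads in the deletion libraries and 0.539% and 0.444% in the wild-type libraries. Each of them had between 136 and 7660 reads in every library and passed the filter on low counts. The deleted gene int6 stood at 0.0285 and 0.842 CPM (read counts scaled to library size with TMM factors) in the deletion and at 21.8 and 22.9 CPM in wild type. Even this difference, a log2 change of −6.23 (standard error 0.93), had an edgeR adjusted p of 0.111 and did not pass 0.05.

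Before any strain comparison, 3 of the 9 genes differ from the others in structure, since they hold introns. tif451 and tif452 hold 2 introns each and tif212 holds 1, all between coding exons, and their total lengths in RefSeq (202, 147 and 80 bases) equal those implied by the deposited table. The introns are printed from RefSeq assembly ASM294v3, 5′ to 3′ on the gene's strand, because the reads that span them are compared further on. They lie at chrI:3528386-3528453 and chrI:3528629-3528762 (both plus strand, tif451), at chrII:1134976-1135065 and chrII:1135206-1135262 (both plus strand, tif452) and at chrI:2444922-2445001 (minus strand, tif212). Capitals mark the first 6 bases, the last 2 bases and, between them, the last match in the final 40 bases to CTAAC or one of the variants CTGAC and CTAAT and also CTGAT, forms of the fission yeast branch sequence searched on the transcribed strand.
tif451 intron 1: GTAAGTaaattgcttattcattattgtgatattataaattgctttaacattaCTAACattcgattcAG
tif451 intron 2: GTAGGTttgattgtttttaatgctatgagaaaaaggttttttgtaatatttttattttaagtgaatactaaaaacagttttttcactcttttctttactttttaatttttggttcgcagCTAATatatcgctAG
tif452 intron 1: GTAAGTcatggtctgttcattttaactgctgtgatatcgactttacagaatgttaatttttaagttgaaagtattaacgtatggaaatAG
tif452 intron 2: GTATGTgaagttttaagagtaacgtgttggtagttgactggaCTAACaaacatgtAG
tif212 intron 1: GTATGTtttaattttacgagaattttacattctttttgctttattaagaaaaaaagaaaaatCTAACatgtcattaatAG

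Of 5216 introns annotated by RefSeq, 99.8% begin with GT and end with AG, as these 5 do, and 74.8% hold one of the 4 branch forms in that window. Intron 1 of tif452 holds none of these letters there, which says only that they are not in the window. The lengths of 57 to 134 bases lie above the median intron of 56 bases.

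The levels per length span a wide range, and the order was nearly the same in every library. Counting TMM-normalized CPM per kilobase of the deposited transcript length, tif11 was the highest of the 9 in each library, at 258 and 141 in the deletion and 240 and 213 in wild type. A middle group followed, made of tif5, tif451 and tif1. tif5 stood at 67.3 and 60.1 CPM per kilobase in the deletion and 106 and 73 in wild type, and tif451 at 74.9 and 53.4 in the deletion and 91.1 and 63.2 in wild type. tif1 stood at 55.6 and 68.8 in the deletion and 60.8 and 68.3 in wild type. The values of tif5, tif451 and tif1 overlapped across the 4 libraries, so their order is not fixed by these data, and all 3 lay below tif11 and above the rest in each library.

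The eIF2 subunit genes came next, each apart from its neighbours in this order at the deposited lengths. The margin below tif213 was narrow, 13.5 in deletion replicate 1 against 13 for tif452 in wild-type replicate 2. At RefSeq's mRNA lengths the values of tif213 overlap those of tif452 and pab1 across the libraries. tif212 stood at 23.2 and 19.6 CPM per kilobase in the deletion and 20.4 and 21.8 in wild type, and tif213 at 13.5 and 18 in the deletion and 15.3 and 16.8 in wild type. The lowest were tif452, pab1 and tif471, whose values overlapped. tif452 averaged 8.07 ± 2.92 in the deletion and 11.5 ± 2.21 in wild type (SD, n = 2 each), and tif471, encoding the scaffold of eIF4F, stood at 5.53 and 7.87 in the deletion and 5.42 and 6.84 in wild type. Even tif471 lay at or above the 55.4th percentile of 4785 protein-coding genes on this scale in each library, and tif11 at or above the 97.6th.

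The place of pab1 in this order depends on its annotated length. The deposited feature is 4616 bases long, and RefSeq's pab1 mRNA is 2436 bases, a ratio of 1.89. With the deposited length pab1 averaged 6.87 ± 0.984 CPM per kilobase in the deletion and 6.02 ± 0.137 in wild type (SD, n = 2 each). With RefSeq's length the means were 13 in the deletion and 11.4 in wild type, beside 9.19 and 13.1 for tif452 and 6.78 and 6.21 for tif471 in the same strains. These means divide the CPM of the whole deposited feature by RefSeq's length. Reads from deposited bases outside RefSeq's mRNA stay in them, so the means for pab1 are upper limits. The ratio of the 2 lengths was 1.19 for tif451 and 1.14 for tif452 and between 0.994 and 1.03 for the other 6 genes.

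The design asks which mRNA levels differ between the deletion and wild type. No difference was detected for any of the 9 genes. In edgeR's quasi-likelihood test with Benjamini-Hochberg adjustment over 5915 features, 0 of 9 passed an adjusted p of 0.05 in either direction, where 0.0169% of all features passed, which is the 1 gene str3. At an unadjusted p under 0.05 it was again 0 of 9, where 4.8% of all features were higher and 5.31% lower. DESeq2 called 0 of 9 and 1.31% of its features, limma-voom 0 of 9 and 0.0169%, and edgeR with the replicate number as a block 0 of 9 and 3.26%. 3 genes had a positive and 6 a negative log2 change (deletion over wild type), with a median of −0.05, beside 0.00 over all features and 0.04 over protein-coding genes. The 95% interval of the fitted change stayed within 2-fold either way for 6 of the 9, with tif452, tif5 and tif11 as the exceptions. It did so for 26.6% of all features and 31.6% of protein-coding genes. The share was not particular to the 9. It was 66.7% among 21 other genes of initiation and its control and 57.1% among 7 elongation factor genes, lists taken up further on.

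**Figure D1:**
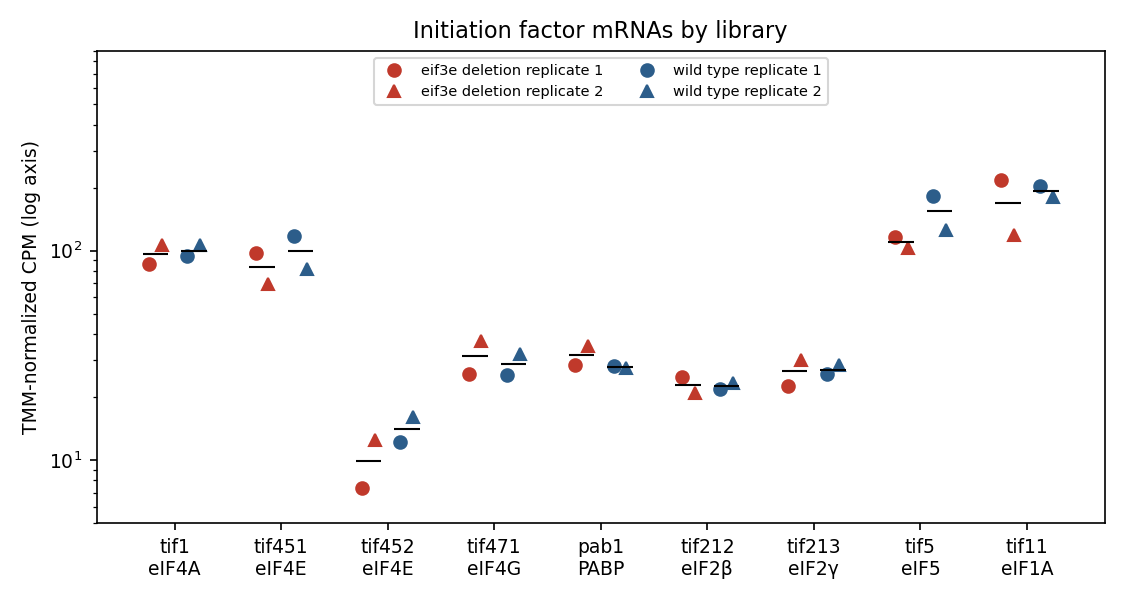
TMM-normalized CPM (log axis) of the 9 genes in each library, with red for the eif3e deletion, blue for wild type, circles for replicate 1, triangles for replicate 2 and a black bar at each strain's mean of 2. For tif5 both deletion points lie under both wild-type points, for pab1 both lie above them, and for the other 7 the strains overlap.

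Among the genes of the cap- and tail-binding complex, eIF4A hardly differed in mean. tif1, the helicase gene, measured 86 and 106 CPM in deletion replicates 1 and 2 and 94 and 106 CPM in wild-type replicates 1 and 2, so the strains overlap. Its log2 change was −0.05 (SE, the standard error, 0.26), with a 95% interval of −0.65 to 0.55 and an edgeR adjusted p of 0.955. In both strains replicate 2 lay above replicate 1.

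The major and the minor eIF4E mRNA were both lower in mean in the deletion, without passing the test. tif451 measured 97.1 and 69.2 CPM in the deletion and 118 and 81.9 CPM in wild type. The replicates of a strain lay 0.49 (deletion) and 0.53 (wild type) apart on the log2 scale, more than the strain difference of −0.27, whose standard error was 0.30 and edgeR adjusted p 0.824. tif452, the second eIF4E gene, which RefSeq's product line also calls a stress response factor, measured 7.38 and 12.5 CPM in the deletion and 12.2 and 16 CPM in wild type. Its log2 change of −0.52 was the lowest of the 9, with a standard error of 0.35, an interval of −1.34 to 0.31 and an edgeR adjusted p of 0.688. Only deletion replicate 1 lay clearly below wild type, and deletion replicate 2 lay just above wild-type replicate 1. The longest run of identical bases shared by the 2 eIF4E mRNAs is 14 bases.

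eIF4G and the poly(A) binding protein had positive changes of small size. tif471 measured 25.9 and 36.9 CPM in the deletion and 25.4 and 32.1 CPM in wild type, a log2 change of 0.13 (SE 0.28, edgeR adjusted p 0.918). The libraries of both strains interleave, replicate 2 being higher in each. pab1 measured 28.5 and 34.9 CPM in the deletion and 28.2 and 27.4 CPM in wild type. It was the 1 gene of the 9 with both deletion libraries above both wild-type libraries, a pattern seen in 20.1% of all features. Deletion replicate 1 exceeded wild-type replicate 1 only slightly, and the log2 change was 0.19 (SE 0.24, edgeR adjusted p 0.847).

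pab1 also has the largest overlap with a neighbour. The first 1181 bases of its deposited feature, 25.6% of it, lie opposite the gene SPAC57A7.05 on the other strand. The deposited feature starts 2180 bases upstream of RefSeq's pab1 mRNA and ends at the same base, 1545221. By these coordinates the overlap lies outside RefSeq's pab1 mRNA. That gene averaged 5.02 ± 1.86 CPM in the deletion and 1.38 ± 0.547 CPM in wild type (SD, n = 2 each), with a log2 change of 1.93 (SE 0.53, edgeR adjusted p 0.331). The sources used here do not say whether counting used strand, and the part of the neighbour in the values of pab1 was not tested. tif451 overlaps tae1 on the opposite strand over 277 bases, and tae1 had a log2 change of 0.21 (edgeR adjusted p 0.876). tif1, tif452, tif471, tif213 and tif11 overlap no other feature.

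The eIF2 subunit genes among the 9 showed the smallest differences between strains. tif212 measured 24.8 and 21 CPM in the deletion and 21.8 and 23.3 CPM in wild type, with the wild-type values between those of the deletion. Its log2 change was 0.03 with an interval of −0.54 to 0.60 and an edgeR adjusted p of 0.983. tif213 measured 22.7 and 30.2 CPM in the deletion and 25.7 and 28.3 CPM in wild type, again with the wild-type values inside the deletion range, a log2 change of −0.03 and an edgeR adjusted p of 0.979. tif211, the alpha subunit gene, measured 134 and 115 CPM in the deletion and 171 and 142 CPM in wild type. Both deletion libraries of tif211 lay below both wild-type libraries, by −0.33 on the log2 scale in the fit (SE 0.26, edgeR adjusted p 0.736). tif212 overlaps the non-coding SPNCRNA.827 on its own strand over 67 bases.

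tif5 stood apart in the other direction from pab1. It measured 116 and 103 CPM in the deletion and 182 and 126 CPM in wild type, both deletion libraries being lower than both wild-type libraries, as in 21.4% of all features. The log2 change was −0.49 with a standard error of 0.29, an interval of −1.17 to 0.19 and an edgeR adjusted p of 0.634, the smallest of the 9. The wild-type replicates differed by 0.53 on the log2 scale, more than the strains did. tif5 overlaps pol4 on the same strand over 65 bases and med1 on the opposite strand over 94 bases. pol4 had 74 and 70 reads in the deletion and 45 and 2 reads in wild type, few beside the 1067 to 4206 reads of tif5.

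tif11, the most abundant of the 9, varied most between the deletion libraries. It measured 218 and 119 CPM in deletion replicates 1 and 2, which lie on either side of the 203 and 180 CPM in wild type. The gap between the deletion libraries was 0.87 on the log2 scale, the widest replicate gap of the 9, and that between the wild-type libraries 0.17. Between strains the log2 change was −0.18 (SE 0.35, edgeR adjusted p 0.898).

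**Figure D2:**
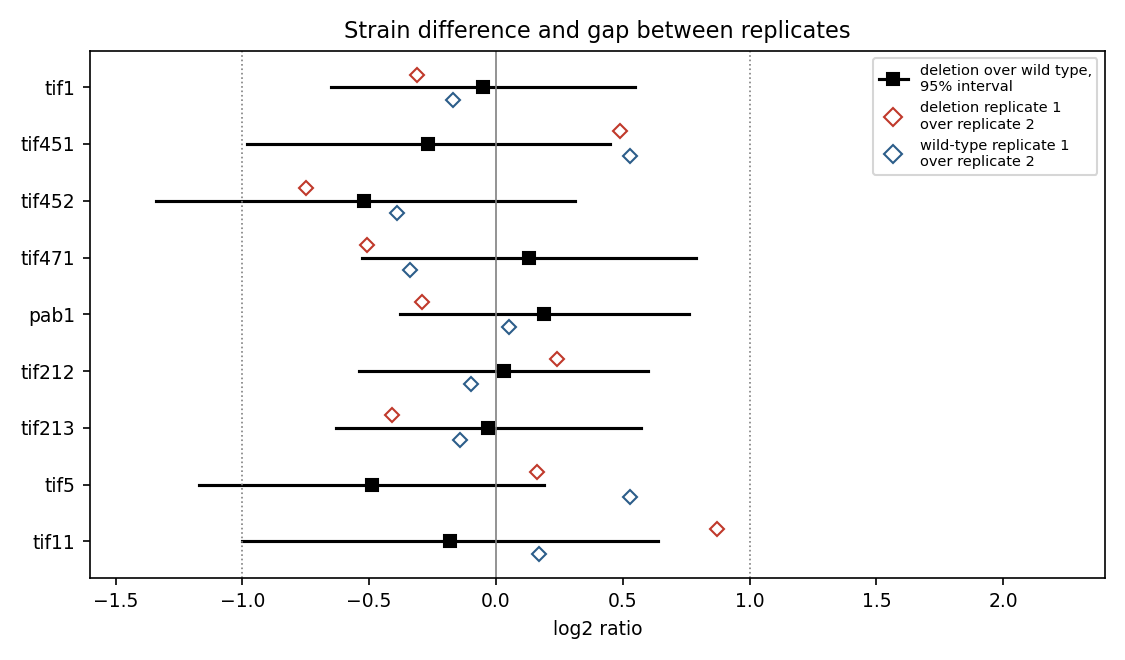
Fitted log2 change of each gene (black squares, eif3e deletion over wild type, with 95% intervals) and the log2 ratio of replicate 1 over replicate 2 within the deletion (red diamonds) and within wild type (blue diamonds); dotted lines mark 2-fold. Every interval covers 0, and for each of the 9 genes at least 1 diamond lies farther from 0 than the square.

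For 9 of 9 genes the strain difference was smaller than the larger of its 2 replicate gaps, which held for 71.8% of all features. The median size of the gap over the 9 was 0.41 in the deletion and 0.17 in wild type, against 0.45 and 0.40 over all features. In 7 of the 9 the gap had the same sign in both strains. That count was not made over all features, where the gaps within the strains correlated at 0.24. By TMM-normalized CPM, replicate 1 was the higher one in both strains for tif451, tif5 and tif11. It was the lower one in both for tif1, tif452, tif471 and tif213. These directions depend on the TMM factors, which were 1.242 and 0.7124 in deletion replicates 1 and 2 and 1.323 and 0.8546 in wild type. On the deposited RPKM replicate 1 was higher in both strains for tif1 (62.9 and 46.2 in the deletion, 73.6 and 54.5 in wild type). The same held for tif471 and tif213, and for tif452 in wild type only.

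Ratios between 2 mRNAs within a library do not depend on how libraries are scaled. Reads per kilobase of tif452 were 8.02% and 19% of those of tif451 in deletion replicates 1 and 2, and 10.9% and 20.6% in wild-type replicates 1 and 2. The minor eIF4E mRNA was thus the less abundant one in 4 of 4 libraries, and the share was higher in replicate 2 of each strain. The mean difference of the log2 ratio, deletion minus wild type, was −0.28 with a pooled SD of 0.77, and a two-sided exact permutation test gave p = 0.67, where 0.33 is the smallest p that 2 libraries against 2 allow. tif471 stood at 7.38% and 14.7% of tif451 in the deletion and 5.95% and 10.8% in wild type, a log2 difference of 0.38 with a pooled SD of 0.66 (exact permutation p = 0.67). Here too replicate 2 was higher in both strains. The pooled SD and the permutation test do not pair same-numbered libraries. Within replicate numbers 1 and 2 the difference was −0.44 and −0.12 for tif452 to tif451, and 0.31 and 0.45 for tif471 to tif451. Each ratio kept its sign, but an exact permutation test of 2 pairs cannot go below 0.5.

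**Figure D3:**
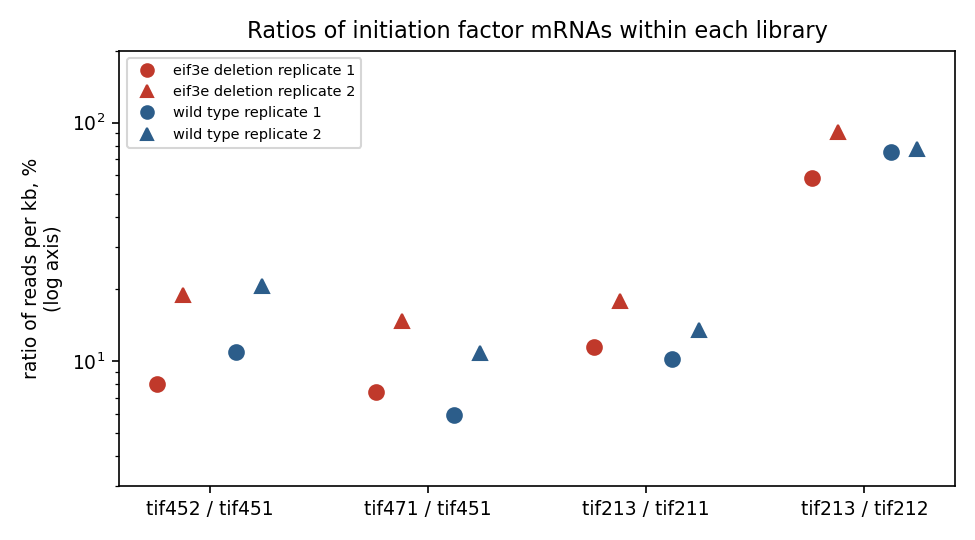
Reads per kilobase of one mRNA as a percentage of another (log axis) in each library, for 4 pairs of initiation factor genes. In the pairs with tif451 or tif211 below the line, replicate 2 (triangles) lies above replicate 1 (circles) in both strains, and tif213 lies between 58.3% and 91.5% of tif212.

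Within eIF2, the gamma subunit mRNA was closer in level to the beta than to the alpha subunit mRNA. tif213 stood at 58.3% and 91.5% of tif212 in the deletion and at 75.3% and 77.3% in wild type, a log2 difference of −0.06 (exact permutation p = 1). It stood at 11.5% and 17.8% of tif211 in the deletion and at 10.2% and 13.5% in wild type, a log2 difference of 0.29 with a pooled SD of 0.38 (exact permutation p = 0.67). Within replicate numbers 1 and 2 the difference was 0.17 and 0.40 for the ratio to tif211, and −0.37 and 0.24 for the ratio to tif212. In every library the ratio to tif212 was higher than the ratio to tif211. The 4 ratios make a family of 4 comparisons, and none could have reached 0.05.

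Reads across exon junctions were a further readout of the genes with introns. They were taken back to read numbers from the deposited junction RPKM. This gave whole reads within 0.02 for at least 99.93% of the 1154 to 1520 features with junction reads in a library. Of the reads of tif451, 75 of 3406 and 34 of 822 crossed a junction in deletion replicates 1 and 2, and 71 of 2729 and 24 of 695 in wild-type replicates 1 and 2. These are 2.2% (exact Clopper-Pearson 95% interval 1.74% to 2.75%) and 4.14% (2.88% to 5.73%) in the deletion, and 2.6% (2.04% to 3.27%) and 3.45% (2.22% to 5.09%) in wild type. Intervals and limits on junction reads cover counting error only. The strains interleave, and the means of 3.17% ± 1.37 in the deletion and 3.03% ± 0.601 in wild type (SD, n = 2 each) differed by less than the spread between replicates (exact permutation p = 1). tif451 ranked above 73.1% to 84.8% of the intron-holding genes with at least 100 reads, whose median was 0.632% and 1.05% in the deletion and 0.875% and 0.971% in wild type.

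tif452, which has as many introns as tif451, had few junction reads. They numbered 2 of 259 and 3 of 148 in the deletion and 0 of 282 and 1 of 136 in wild type. The 0 of 282 allows a share of up to 1.06% taken as 3 counts of the total, or up to 1.3% by the exact interval used for the other shares. Over all 4 libraries together 6 of 825 reads of tif452 crossed a junction, 0.727% with an exact interval of 0.267% to 1.58%, beside 204 of 7652 for tif451, 2.67% with an interval of 2.32% to 3.05%. The intervals of the eIF4E mRNAs do not overlap in this sum, and tif451 had the higher share in 4 of 4 libraries. The share of tif452 was 1.4% ± 0.89 in the deletion and 0.367% ± 0.52 in wild type (SD, n = 2 each). Both deletion values lay above both wild-type values, and the exact permutation p was 0.33, the smallest that 2 libraries against 2 allow at any depth. These values rest on 5 junction reads in the deletion and 1 in wild type, and the exact intervals of all 4 libraries overlap.

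tif212 had 3 of 871 and 1 of 250 junction reads in the deletion and 0 of 504 and 3 of 198 in wild type, 0.384% in sum with an exact interval of 0.155% to 0.79%. Its alpha partner tif211 had 348 of 11212 over the 4 libraries, 3.1% with an interval of 2.79% to 3.44%. The share for tif211 averaged 3.64% ± 1.5 in the deletion and 3.39% ± 0.608 in wild type (SD, n = 2 each, exact permutation p = 1). The deposited values do not tell the junctions of a gene apart. The introns of tif211 were not counted here, and no share was adjusted for the number of introns or the transcript length.

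**Figure D4:**
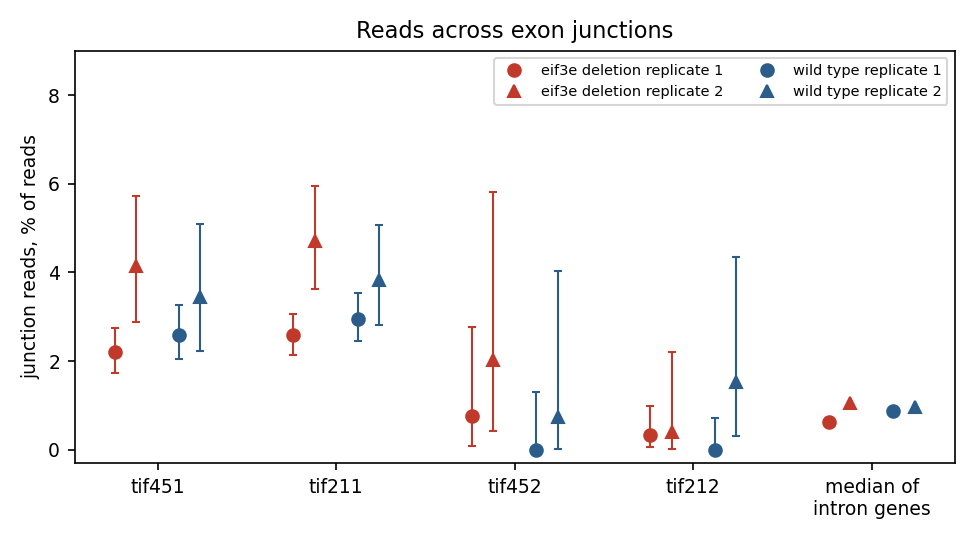
Reads across exon junctions as a percentage of the reads of each gene, by library, with exact 95% intervals; the last column gives the median over intron-holding genes with at least 100 reads in that library. tif451 and tif211 lie between 2.2% and 4.7%, above tif452 and tif212 in each library, and tif452 is the 1 gene of the 4 with both deletion points above both wild-type points.

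Other genes of initiation and its control, with the termination factor genes sup45 and sup35, were counted from a list of 21. In edgeR's test 0 of 21 passed the adjusted threshold, where 0.0169% of all features did. A negative change was fitted for 16 of 21, or 76.2%, beside 49.9% of all features, with a median of −0.21. At an unadjusted p under 0.05 there were 0 higher and 1 lower, where 4.8% of all features were higher and 5.31% lower. Both deletion libraries lay below both wild-type libraries for 7 of 21 and above them for 2 of 21, where 21.4% and 20.1% of all features did. The list holds the 5 subunit genes of eIF2B, the factor that recharges eIF2 with GTP. For 3 of them the strains overlapped, with log2 changes of −0.21 for tif221, 0.79 for tif222 and −0.12 for tif223, and for the other 2 both deletion libraries were the lower ones. tif222 was low throughout, at 2.42 and 0.842 CPM in the deletion and 0.606 and 1.41 CPM in wild type. The change of tif222 had a standard error of 0.87 and an edgeR adjusted p of 0.82. tif225 (epsilon) averaged 76.4 ± 4.16 CPM in the deletion and 103 ± 19.7 CPM in wild type (SD, n = 2 each), and tif224 (delta) 99.9 ± 2.32 CPM in the deletion and 127 ± 20.9 CPM in wild type, with edgeR adjusted p of 0.639 and 0.717. sup45 was the 1 gene of the list with an unadjusted p under 0.05, at 17.4 ± 1.76 CPM in the deletion and 26.8 ± 3.31 CPM in wild type, and its edgeR adjusted p was 0.476.

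The 2 genes that lay above wild type in both deletion libraries were gcn2 and fil1. gcn2 encodes a kinase that phosphorylates the alpha subunit of eIF2 when amino acids are scarce, and it measured 103 and 83.5 CPM in the deletion and 57 and 69.2 CPM in wild type. The change of gcn2 was 0.57 on the log2 scale (SE 0.26, edgeR adjusted p 0.517). fil1, a transcription factor gene of the amino acid starvation response, measured 28.8 and 26.3 CPM in the deletion and 20.5 and 24.3 CPM in wild type, with a log2 change of 0.30 and an edgeR adjusted p of 0.733. The other eIF2 alpha kinase genes, hri1 and hri2, had log2 changes of −0.10 and 0.18. eIF1 (sui1), eIF5B (tif52) and eIF5A (tif51) had log2 changes of −0.14, 0.10 and −0.21.

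Elongation factors were set beside initiation factors. 0 of 7 elongation factor genes passed in edgeR's test, and the median log2 change was 0.13. There were 5 positive and 2 negative changes (28.6% negative, beside 49.9% of all features). The strains overlapped for 7 of 7. Over all features the strains did not overlap in 20.1% with the deletion higher, and in 21.4% with it lower. 0 of the 7 had an unadjusted edgeR p under 0.05, against 4.8% (higher) and 5.31% (lower) of all features. The eEF1A genes tef101, tef102 and tef103 had log2 changes of 0.15, 0.00 and −0.10. Sequence shared by these genes was not measured, so their estimated counts may not be independent. Of 9 other eIF3 subunit genes 0 passed, with 8 negative changes (88.9%, beside the same 49.9%) and a median of −0.23. Of these 9 genes, 3 were lower in both deletion libraries, as were 21.4% of all features, and 1 was lower at an unadjusted p under 0.05, as were 5.31% of all features. Medians of such lists are descriptions, and the differences between the lists were not tested.

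**Figure D5:**
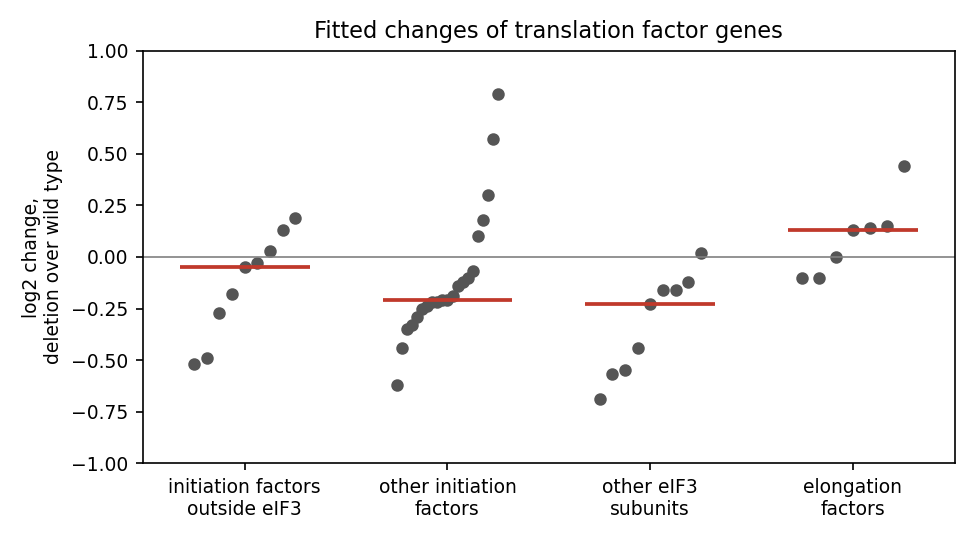
Fitted log2 changes (eif3e deletion over wild type) of the 9 initiation factor genes outside eIF3, 21 other initiation and control genes, 9 other eIF3 subunit genes and 7 elongation factor genes; each point is a gene and the red line the list's median. Medians lie between −0.23 and 0.13, and no gene shown passed the adjusted threshold.

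By the likeness of their profile over the 4 libraries, the median profile of the 9 was nearest to rad13, nup107 and SPAC688.16. Each gene's log2 CPM was centred on its own mean, and the root mean square difference from the median profile was 0.0229, 0.0259 and 0.03 for these 3, against a median of 0.336 over 4766 protein-coding genes. These 3 were picked for the smallest differences, which fixed in advance that they lie under this median. Among the 9 themselves tif1 lay nearest, at 0.0416, and tif11 farthest, at 0.424. tif451 at 0.362 and tif5 at 0.346 also lay beyond the median of 0.336. The measure rests on 4 libraries and on a profile that ran only from −0.15 in deletion replicate 1 to 0.10 in deletion replicate 2.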

How the data were processed

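RNA-seq of 2 libraries per strain was used. Partek 6.0, TopHat 1.4.1, Bowtie 1.1.0 and SAMtools are listed, with no role, in the submitters' processing notes. The sources used here do not give the build or annotation. Per the file headers, the deposited table of 6808 features gives estimated counts of reads per transcript, RPKM and junction RPKM, transcript length in bases, and the authors' chi-square score and p-value. Between 89.6% and 91.9% of the deposited estimated counts were whole within 1e-06, and all were rounded.

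Names and introns came from RefSeq ASM294v3, by identifier (6636 of 6808 matched, 97.5%). The comparison used edgeR 4.0.16 in R 4.3.3 with TMM, filterByExpr and the quasi-likelihood test, two-sided, strain only, Benjamini-Hochberg over 5915 features. Standard errors are the log2 change over the root of F. DESeq2 1.42.0 and limma 3.58.1 (voom, and on log2 RPKM plus 1 or 0.1) were alternatives. edgeR was tested on simulated data. Ratios within libraries were compared by exact permutation. Python 3.11.15 served for tables.

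The members and lists were chosen with earlier results of these data known. The ratio of tif213 to tif211 was planned by symbol, when SPAC32A11.04c was taken for tif211. SPAC3G9.09c was read as tif211, and the ratio of tif213 to tif212 added, after the files were seen. Named genes were the 9, int6 and members of the lists of initiation, elongation, eIF3 and mating-type genes, with str3, overlapping neighbours and the 3 genes of the likeness rule. csn71, listed with eIF3, is a COP9 signalosome gene and was left out, and 0 columns could not be tied to a library.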

Additional observations from a re-analysis of the deposited data

How the results depend on the processing

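Under the 13 alternatives 0 of the 9 genes passed the threshold, with adjusted p of 0.253 or more. The number of features called moved from 1 to 20 without the low-count filter, 80 in DESeq2, 46 and 69 in limma on log2 RPKM with pseudocounts of 1 and 0.1, and 193 with the replicate block, and ran from 0 to 242 with a library left out; the cause was not tested. With 1 library left in a strain, that library is assumed to vary like the other strain's. The RPKM scale shifted the median of all features to −0.12 (pseudocount 1) and −0.17 (0.1). On it tif212 stood at −0.14 and −0.15 and tif471 at −0.05 and −0.06, the direction turned but near that shift. With a library left out, the log2 change ran from −0.21 to 0.10 for tif1, −0.53 to 0.02 for tif451, −0.92 to −0.17 for tif452, −0.14 to 0.37 for tif471, 0.04 to 0.33 for pab1, −0.10 to 0.14 for tif212, −0.24 to 0.17 for tif213, −0.73 to −0.20 for tif5 and −0.68 to 0.19 for tif11, so only tif452, tif5 and pab1 kept their direction. The ratios ran from −0.90 to 0.34 (tif452 to tif451), −0.12 to 0.88 (tif471 to tif451), −0.03 to 0.60 (tif213 to tif211) and −0.39 to 0.26 (tif213 to tif212). With the replicate block the median of the 9 was −0.06. In this balanced design a replicate block cannot move the ratio differences (−0.28, 0.38, 0.29 and −0.06), only their spread. Within replicate numbers 1 and 2 they were −0.44 and −0.12 (tif452 to tif451, SD 0.23), 0.31 and 0.45 (tif471 to tif451, SD 0.09), 0.17 and 0.40 (tif213 to tif211, SD 0.16) and −0.37 and 0.24 (tif213 to tif212, SD 0.43), where an exact permutation test of 2 pairs cannot go below 0.5. Within-strain gaps correlated at 0.24 between strains over all features, and the shared title prefix of same-numbered libraries is not explained in the labels. Depth limits tif452 most, at 136 to 282 reads per library.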

Other observations

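The authors' deposited table gives each of the 9 genes a chi-square with a p-value of 0.00112 or less. The 6 p-values of these genes that are not listed as 0 match, to 3 digits, what 3 degrees of freedom give for the listed chi-square, which is a comparison among the 4 libraries and not between the strains, so differences between replicates enter it. In the authors' deposited table the chi-square ran from 16.0 for tif471 (p-value 0.00112) to 2330 for tif11, with tif5 at 1658 and tif451 at 1115. In the authors' deposited table tif1 had 194 and tif213 46.6. On TMM-normalized CPM, the 3 genes with the largest chi-square are those whose replicate 1 was the higher one in both strains. On the deposited RPKM this held for each of the 9 genes except tif452 (6.79 and 6.80 in the deletion), so it does not set these 3 apart. Per the values in the files, the incompatible RPKM of all 9 was 0 in every library. The mating-type genes were read as a check of the h- label: the 6 M-cell genes summed to 1395 and 416 reads in the deletion and 1074 and 296 reads in wild type, and the 3 P-cell genes to 245 and 130 reads in the deletion and 122 and 71 reads in wild type. 0 of the 6 genes of these lists that passed the filter passed the adjusted threshold in edgeR's test, where 0.0169% of all features did. At an unadjusted p under 0.05 it was also 0, where 4.8% of all features were higher and 5.31% lower.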
